A study of Mus musculus with 26 samples.

Results

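A lentiviral vector carrying GFP, the green fluorescent protein used as a control cargo, was compared with sham surgery in the entorhinal cortex of non-transgenic mice. The comparison comprised every array of the series that its labels place in those groups, which were 2 GFP arrays and 3 sham arrays, 5 of 26 arrays in all. The labels describe aged animals whose virus was given to the entorhinal cortex, so this is the injected region, and they place tissue collection 4 weeks after infection, a label the sham arrays carry too. The other entorhinal arrays came from APP transgenic animals given BDNF (4 arrays) or GFP (4 arrays) virus, and the hippocampus of the same 4 groups was also arrayed. The sources used here give neither age in months, nor strain, nor the promoter that drives GFP, nor what the sham animals received. The labels call the replicates biological. Unless said otherwise, entorhinal p-values rest on the spread within all 4 entorhinal groups (13 arrays), the transgenic ones included.

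A lentivirus inserts its genome into the cells it enters, and the injection itself passes a needle through meninges and cortex. In brain tissue, interferons are the usual early alarm for viral nucleic acid. Interferon gamma, which T and natural killer cells release, raises antigen presentation: major histocompatibility complex (MHC) class I molecules show peptides to cytotoxic T cells and class II molecules show them to helper T cells. Plasma cells, which secrete antibody, are scarce in uninjured brain.

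The tissue labels were checked against region markers. All 9 hippocampal markers, among them Prox1 of dentate granule cells, lay below every non-transgenic hippocampal array. Of 6 cortical markers, Tbr1, Cux2 and Reln lay above every such array and the other 3 overlapped. The 5 arrays had medians of 5.55 to 5.56 on the log2 scale. The 3' minus 5' signal of Gapdh, which grows as RNA degrades, was 0.73 and 0.84 in GFP cortex, against 0.69, 0.73 and 0.75 in sham cortex. The same difference for Actb was 1.90 and 2.05 in GFP cortex, against 2.02, 2.11 and 1.96 in sham cortex. The number of arrays limits the precision of every value that follows.

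Promoter sequences holding a searched motif are shown for 3 genes that were higher on GFP array 1 than on every sham array. The promoter of H2-DMb2, likewise higher on that array, was searched too, held no match and is not shown. H2-Aa encodes a chain of the class II molecule, Cxcl9 a chemokine that draws T cells, and Irgm1 a GTPase of interferon-induced defence. Each sequence runs from 250 bases before to 50 bases after the RefSeq start site, from GRCm38.p6. H2-Aa lies at chr17:34287774-34288073 on the minus strand, Cxcl9 at chr5:92328030-92328329 on the minus strand and Irgm1 at chr11:48871371-48871670 on the minus strand. Capitals mark matches to the motifs searched on both strands.
H2-Aa: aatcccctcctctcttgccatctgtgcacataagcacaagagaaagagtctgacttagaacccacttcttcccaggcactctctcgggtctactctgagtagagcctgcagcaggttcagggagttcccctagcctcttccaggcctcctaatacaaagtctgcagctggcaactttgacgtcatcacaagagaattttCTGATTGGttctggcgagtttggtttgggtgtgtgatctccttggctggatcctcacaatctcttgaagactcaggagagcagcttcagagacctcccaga
Cxcl9: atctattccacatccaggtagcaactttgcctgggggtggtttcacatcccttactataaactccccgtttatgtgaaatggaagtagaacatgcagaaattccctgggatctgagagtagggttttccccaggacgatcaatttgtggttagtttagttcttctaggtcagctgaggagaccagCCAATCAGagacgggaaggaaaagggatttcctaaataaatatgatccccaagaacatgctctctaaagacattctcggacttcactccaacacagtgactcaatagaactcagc
Irgm1: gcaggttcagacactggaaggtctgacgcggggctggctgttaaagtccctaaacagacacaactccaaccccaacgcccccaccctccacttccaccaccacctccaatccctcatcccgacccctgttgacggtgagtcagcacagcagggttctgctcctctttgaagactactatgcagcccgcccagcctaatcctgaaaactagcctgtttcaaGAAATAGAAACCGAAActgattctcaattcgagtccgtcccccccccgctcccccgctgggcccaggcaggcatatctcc
The capitals in H2-Aa are the Y box CTGATTGG, an element of class II promoters bound by NF-Y, which began 51 bases before the start site. Those in Cxcl9 are the same motif on the other strand, 65 bases before it. Those in Irgm1 are 2 overlapping matches to the core of the interferon-stimulated response element (ISRE), at 30 and 24 bases before it. That core was searched as GAAA, any 2 bases and GAAA, and the Cxcl9 window held no match to it.

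Over all 32851 promoters of 300 bases, 3.44% held the ISRE core, 4.1% held the Y box and 0.411% held the kappa B motif, searched as GGGA, any base and TTTCC. The ISRE core was in 7 of 11 matched promoters of the interferon gamma list, 9 of 15 of the type I interferon list, 3 of 11 of the class I list and 0 of 7 of the class II list. The Y box was in 4 of 7 class II promoters and 4 of 11 class I promoters, and in 3 of 11 of the interferon gamma list and 0 of 15 of the type I interferon list. The kappa B motif was in 1 class I promoter, that of B2m, and in none of the other 3 lists. These matches describe the letters of these windows. The values below cover some of the genes that carry them.

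GFP cortex differed from sham cortex past the test in 3 genes: Cwc22 rose, and Galc and Fgf1 fell. These were 0.0201% of the 14941 genes tested with limma at an adjusted p of 0.05, with 0.00669% called higher and 0.0134% called lower. At an unadjusted p of 0.05, 441 genes passed (2.95%), 205 higher and 236 lower, where 747 would pass by chance. Over all genes, 7458 were higher by any amount in GFP cortex (49.9%) and 7483 lower (50.1%), with a median difference of -0.00 on the log2 scale.

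Cwc22 encodes a splicing factor of the spliceosome that also places the exon junction complex on spliced mRNA. Its log2 level was 8.08 and 7.76 in GFP cortex, against 6.81, 6.77 and 6.84 in sham cortex. Both GFP arrays stood well clear of the 3 sham arrays, which lay close together. The log2 difference was 1.11 ± 0.12 (SE), or 2.16-fold, with a limma adjusted p of 0.00936. The call was lost when GFP array 1 was left out (adjusted p = 0.139), and likewise without sham array 1 (adjusted p = 0.0621), sham array 2 (adjusted p = 0.0819) or sham array 3 (adjusted p = 0.0584). In each of these fits the difference stayed between 0.95 and 1.13, and without GFP array 2 it was 1.27 and passed. Fitted on the 5 arrays alone, without the spread of the transgenic groups, Cwc22 had an adjusted p of 0.554, as did Galc, and Fgf1 had 0.655, so none of the 3 passed.

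Galc encodes galactosylceramidase, the lysosomal enzyme that breaks down the myelin lipid galactosylceramide. Its log2 level was 7.51 and 7.58 in GFP cortex, against 8.39, 8.49 and 8.37 in sham cortex. The groups did not overlap, and the arrays within each group were close. The log2 difference was -0.87 ± 0.11 (SE, limma adjusted p = 0.0222). Another pair of probe sets for Galc gave differences of 0.01 and -0.08 at levels of 2.88 to 4.69, low on this array. The call was lost without any 1 of the 5 arrays, with adjusted p of 0.449 and 0.188 without GFP arrays 1 and 2, and of 0.123, 0.168 and 0.124 without sham arrays 1, 2 and 3. With probe sets averaged, the difference of Galc was -0.31 (adjusted p = 1).

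Fgf1, acidic fibroblast growth factor, is a growth factor made by neurons. Its log2 level was 8.16 and 7.99 in GFP cortex, against 8.75, 8.90 and 8.90 in sham cortex. The groups did not overlap. The log2 difference was -0.77 ± 0.10 (SE, limma adjusted p = 0.0222). A probe set of Fgf1 at 6.51 and 6.32 in GFP cortex, against 6.93, 6.83 and 7.17 in sham cortex, gave -0.56, and a dim one gave 0.25. This call too was lost without any 1 array, with adjusted p of 0.139 and 0.313 without GFP arrays 1 and 2, and of 0.0621, 0.168 and 0.124 without sham arrays 1, 2 and 3. With probe sets averaged, the difference of Fgf1 was -0.36 (adjusted p = 1).

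The 3 called genes gave like values in the 8 entorhinal arrays of APP transgenic animals, which all received virus. Cwc22 ranged over 7.55 to 8.21 in those arrays, Galc over 7.19 to 7.62 and Fgf1 over 8.05 to 8.31, so all 8 lay on the GFP side of the sham arrays for each gene. The sham arrays are the only entorhinal arrays without virus, and all are non-transgenic. Virus and any other difference of the sham animals cannot be told apart.

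**Figure D1:**
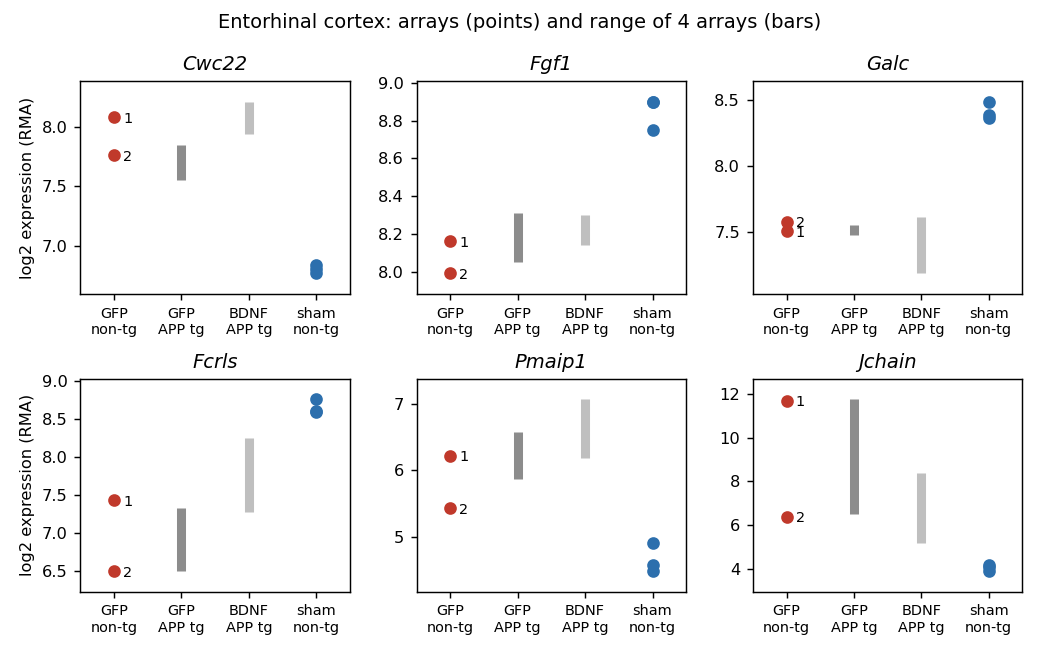
Log2 expression (y axis) of 6 genes in entorhinal cortex: red points are the 2 non-transgenic GFP arrays (numbered), blue points the 3 sham arrays, and grey bars the range of 4 arrays in each APP transgenic group. Cwc22 lay at 7.55 to 8.21 in the transgenic arrays and at 6.77 to 6.84 in sham, and Jchain differed between the GFP arrays (11.67 and 6.38).

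No other gene passed. Both GFP arrays lay above all 3 sham arrays for 1403 genes (9.39%) and below them for 1462 genes (9.79%). The genes of this kind with the smallest p are given as values. Pmaip1, which encodes the p53 target and cell death protein NOXA, was at 6.22 and 5.43 in GFP cortex, against 4.91, 4.57 and 4.48 in sham cortex (1.17 ± 0.29, adjusted p = 1). Zfp458, a zinc finger gene, was at 6.78 and 7.05 in GFP cortex, against 5.63, 5.74 and 6.29 in sham cortex. A second probe set of Zfp458 gave -0.18, against 1.03 for the one used. Nxpe3 had 8.72 and 8.65 in GFP cortex, against 8.38, 8.24 and 8.36 in sham cortex, with 0.36 ± 0.07 and an adjusted p of 0.834. A dimmer probe set of Nxpe3 gave 0.07, at 4.44 and 4.51 in GFP cortex, against 4.64, 4.30 and 4.30 in sham cortex. Pfn1, the actin-binding protein profilin, had 9.77 and 9.70 in GFP cortex, against 9.28, 9.21 and 9.29 in sham cortex. For Pms1 (0.48), Pcdhb7 (0.41), Cdc42ep3 (0.47), Setmar (0.34), 6430628N08Rik (0.38), Ppwd1 (0.75) and 4930570G19Rik (1.52) the log2 differences were of the same sign and none passed.

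Fcrls, an Fc receptor-like gene of resting microglia, was among the genes lower in both GFP arrays. It was at 7.43 and 6.50 in GFP cortex, against 8.60, 8.76 and 8.61 in sham cortex. Both GFP arrays lay more than 1 unit below the sham arrays but were apart from each other, and the difference of -1.70 ± 0.32 had an adjusted p of 0.718. Reck, an inhibitor of matrix metalloproteinases, was at 7.13 and 7.09 in GFP cortex, against 7.73, 8.13 and 7.58 in sham cortex (-0.71 ± 0.14, adjusted p = 0.848). Foxc2, a transcription factor of vessels and meninges, was at 5.96 and 5.76 in GFP cortex, against 7.39, 7.49 and 6.76 in sham cortex (-1.36 ± 0.33, adjusted p = 1). Tdo2 (-0.65), Pcdhb9 (-0.45), 2810032G03Rik (-0.33), Arsk (-0.61), Vps37c (-0.80) and Mrc2 (-0.70) were lower in both GFP arrays and did not pass. Tdo2 was at 3.88 and 3.70 in GFP cortex, against 4.55, 4.26 and 4.52 in sham cortex, near the filter level of 4.33. In non-transgenic hippocampus it was at 6.96 to 7.88. Second probe sets for Arsk, Vps37c and Mrc2 gave 0.06, -0.04 and -0.04, and those for Tdo2 gave 0.21 and -0.03.

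The 2 GFP arrays were unlike each other. GFP array 1 had 177 genes more than 1 log2 unit above the sham mean and 26 below it, and GFP array 2 had 19 above and 29 below. Each sham array against the other 2 gave 13 to 23 above and 8 to 31 below. Any 1 array lies outside the 3 sham arrays for many genes: GFP array 1 was above all 3 for 28.9% of genes and below them for 30.3%, and GFP array 2 for 27.3% and 26.4%. Each group is therefore given array by array.

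**Figure D2:**
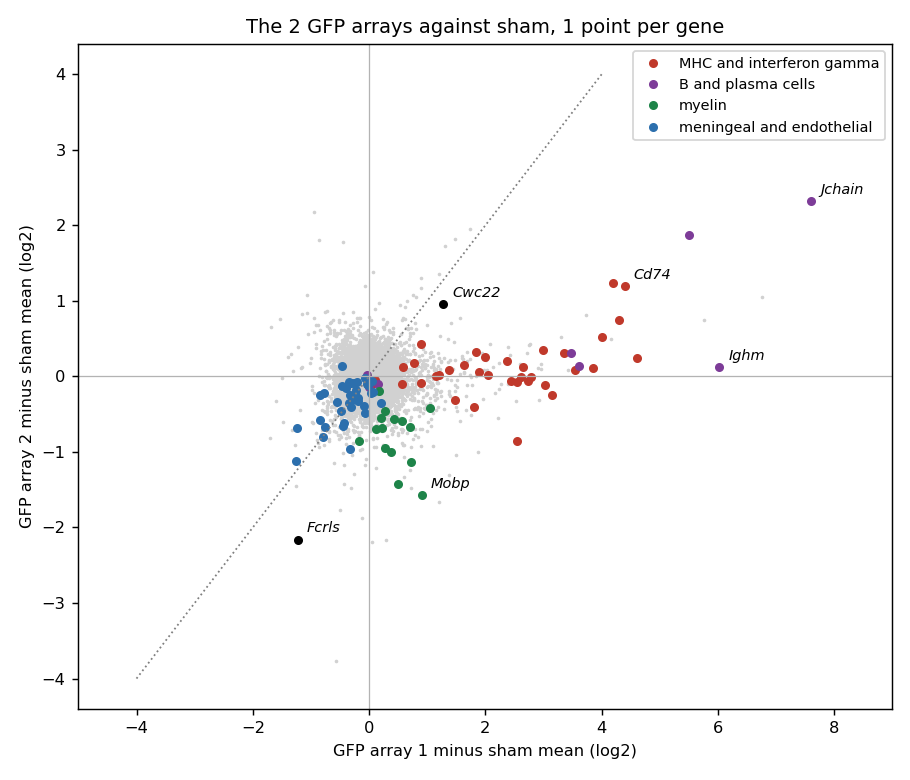
Each point is a gene, placed by GFP array 1 minus the sham mean (x axis, log2) and GFP array 2 minus the sham mean (y axis, log2), with list members coloured and the dotted line marking equal differences. Immune genes such as Ighm (6.02 and 0.12) lie far right near the x axis, myelin genes such as Mobp (0.91 and -1.57) lie below it, and meningeal and endothelial genes lie mostly to the lower left.

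Antigen presentation genes were high on GFP array 1 and by a smaller margin, for part of the genes, on GFP array 2. Of 10 class II genes tested, 9 were higher in GFP cortex on average and none passed, with a median log2 difference of 1.16, against -0.00 over all genes. Cd74, the class II invariant chain, was at 11.44 and 8.24 in GFP cortex, against 6.90, 7.35 and 6.88 in sham cortex (2.79 ± 1.18, adjusted p = 1). H2-Ab1, a class II beta chain, was at 11.24 and 8.29 in GFP cortex, against 7.01, 7.33 and 6.82 in sham cortex. H2-Aa, whose promoter is shown above, was at 11.43 and 7.87 in GFP cortex, against 6.98, 7.25 and 7.16 in sham cortex. For each of these 3 genes GFP array 2 was also above every sham array, by a smaller margin. H2-Eb1, chosen after its values were seen, was at 11.04 and 6.68 in GFP cortex, against 6.37, 6.83 and 6.11 in sham cortex, so GFP array 2 fell among the sham arrays. H2-DMb2, which encodes a chain of the molecule that loads class II peptides, was at 6.71 and 4.68 in GFP cortex, against 4.54, 4.71 and 4.74 in sham cortex. The list's median difference was 0.25 without GFP array 1 and 2.24 without GFP array 2. Both GFP arrays lay above sham for 5 of the 10 genes, where 9.39% of all genes did.

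All 13 class I presentation genes were higher on average and none passed (median 0.89). Psmb9, a subunit of the immunoproteasome that cuts peptides for class I, was at 9.19 and 6.55 in GFP cortex, against 6.05, 6.42 and 6.10 in sham cortex. H2-D1, a class I heavy chain, was at 12.20 and 9.16 in GFP cortex, against 8.12, 9.21 and 9.21 in sham cortex. Tap1, which carries peptides into the endoplasmic reticulum, was at 7.69 and 6.16 in GFP cortex, against 5.83, 5.98 and 5.72 in sham cortex. GFP array 1 was above all sham arrays for 13 of 13 genes and GFP array 2 for 3 of 13. Over all genes these shares were 28.9% and 27.3%. The median was 0.13 without GFP array 1 and 1.63 without GFP array 2.

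The 13 interferon gamma response genes were all higher on average (median 1.30, none passed). Cxcl9 was at 8.43 and 4.95 in GFP cortex, against 4.20, 4.64 and 4.43 in sham cortex (2.26 ± 1.23, adjusted p = 1). Irgm1 was at 10.20 and 7.58 in GFP cortex, against 7.44, 7.82 and 7.51 in sham cortex. Gbp6, a guanylate-binding protein of cell-autonomous defence, was at 10.10 and 6.64 in GFP cortex, against 6.37, 6.87 and 6.46 in sham cortex. GFP array 1 was above sham for all 13 genes, where 28.9% of all genes were. GFP array 2 lay above sham for 1 and below it for 4, where 27.3% and 26.4% of all genes did. Without GFP array 1 the median was -0.06, and without GFP array 2 it was 2.61.

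Type I interferon response genes, the alarm that infected cells raise themselves, showed 21 of 21 higher on average with a median of 0.38 and none called. The list's mean log2 level was 7.33 and 6.03 in GFP cortex, against 6.21, 6.32 and 6.39 in sham cortex. GFP array 1 was above sham for 19 of 21 genes, and GFP array 2 was below every sham array for 12 of 21. Over all genes these shares were 28.9% and 26.4%. Ifit2, an interferon-induced inhibitor of translation, was at 8.29 and 7.50 in GFP cortex, against 7.15, 7.32 and 7.26 in sham cortex, and was above sham on both arrays. The median was -0.26 without GFP array 1, so its sign rests on that array. Among 16 nucleic acid sensing and antiviral restriction genes, 12 were higher (median 0.11, and -0.01 without GFP array 1), with Trim25, a ubiquitin ligase that activates the RNA sensor RIG-I, at 7.86 and 7.23 in GFP cortex, against 7.02, 7.16 and 7.02 in sham cortex.

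Antibody genes were far apart on the 2 GFP arrays. Jchain, which joins IgA and IgM units in plasma cells, was at 11.67 and 6.38 in GFP cortex, against 3.91, 4.09 and 4.20 in sham cortex (4.96 ± 1.54, adjusted p = 1). Igha, the IgA heavy chain, was at 11.41 and 7.78 in GFP cortex, against 5.91, 5.96 and 5.87 in sham cortex. Both genes were above all sham arrays on both GFP arrays. Ighm, the IgM heavy chain, was at 12.82 and 6.92 in GFP cortex, against 6.58, 6.88 and 6.93 in sham cortex, within the sham range on GFP array 2. Ms4a1, the B cell surface protein CD20, was at 7.92 and 4.76 in GFP cortex, against 4.38, 4.51 and 4.47 in sham cortex. Mzb1, a chaperone of antibody secretion chosen after its values were seen, was at 8.92 and 5.44 in GFP cortex, against 5.50, 5.16 and 5.25 in sham cortex. Cd79a, a part of the B cell receptor chosen likewise, was at 4.35 and 4.09 in GFP cortex, against 4.27, 4.28 and 4.05 in sham cortex, a level near the bottom of the array. Of 8 such genes tested, 6 were higher (median 1.88, none called), with 0.13 without GFP array 1 and 3.54 without GFP array 2. Jchain and Cd79a averaged 4.07 and 4.20 in sham cortex, below the filter level of 4.33. They passed because the filter used the mean over all 26 arrays. Cd79b, Pou2af1 and Fcrla of the same list were left out as below that level. The count and median thus rest partly on members that passed through arrays where they were higher.

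T and natural killer cell genes were higher for 13 of 16 members (median 0.29), and both GFP arrays lay above sham for 7 (9.39% of all genes did) and below it for 1 (9.79% did). Cd3d, a chain of the T cell receptor complex, was at 6.65 and 5.60 in GFP cortex, against 5.15, 5.54 and 5.41 in sham cortex. Gzmb, the killing protease granzyme B, was at 5.61 and 5.13 in GFP cortex, against 4.83, 4.91 and 4.73 in sham cortex. Nkg7, a protein of killing granules, was at 6.19 and 4.83 in GFP cortex, against 4.51, 4.60 and 4.40 in sham cortex. All 3 were above sham on both arrays, less so on GFP array 2, and none passed. Without GFP array 1 the median was 0.12, without GFP array 2 it was 0.50, and the list's mean log2 level was 6.15 and 5.40 in GFP cortex, against 5.25, 5.29 and 5.26 in sham cortex.

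Of the chemokine list, 14 of 20 genes were higher (median 0.70, none passed), with a median of 0.09 without GFP array 1 and 1.13 without GFP array 2. Ccl5, which recruits T cells, was at 9.05 and 6.13 in GFP cortex, against 5.20, 5.34 and 5.41 in sham cortex. Ccr1, a receptor of inflammatory chemokines, was at 5.11 and 5.27 in GFP cortex, against 4.59, 4.48 and 4.43 in sham cortex, with GFP array 2 the higher of the pair. A dimmer probe set of Ccr1 gave 0.18, at 3.59 and 2.99 in GFP cortex, against 3.07, 3.11 and 3.13 in sham cortex. Cxcr4, the receptor of Cxcl12, was at 5.50 and 4.25 in GFP cortex, against 4.16, 3.84 and 4.09 in sham cortex. All 16 pan-leukocyte genes were higher (median 0.49), with a median of 0.01 without GFP array 1 and 1.09 without GFP array 2. Their list mean was 8.05 and 6.83 in GFP cortex, against 6.77, 6.86 and 6.81 in sham cortex, so GFP array 2 lay among the sham arrays. Spi1, the myeloid transcription factor PU.1, was at 6.09 and 5.87 in GFP cortex, against 5.59, 5.70 and 5.50 in sham cortex, and Cd52 was at 8.40 and 6.07 in GFP cortex, against 5.46, 5.74 and 5.76 in sham cortex. In bulk tissue more cells of a type and more RNA per cell cannot be told apart.

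**Figure D3:**
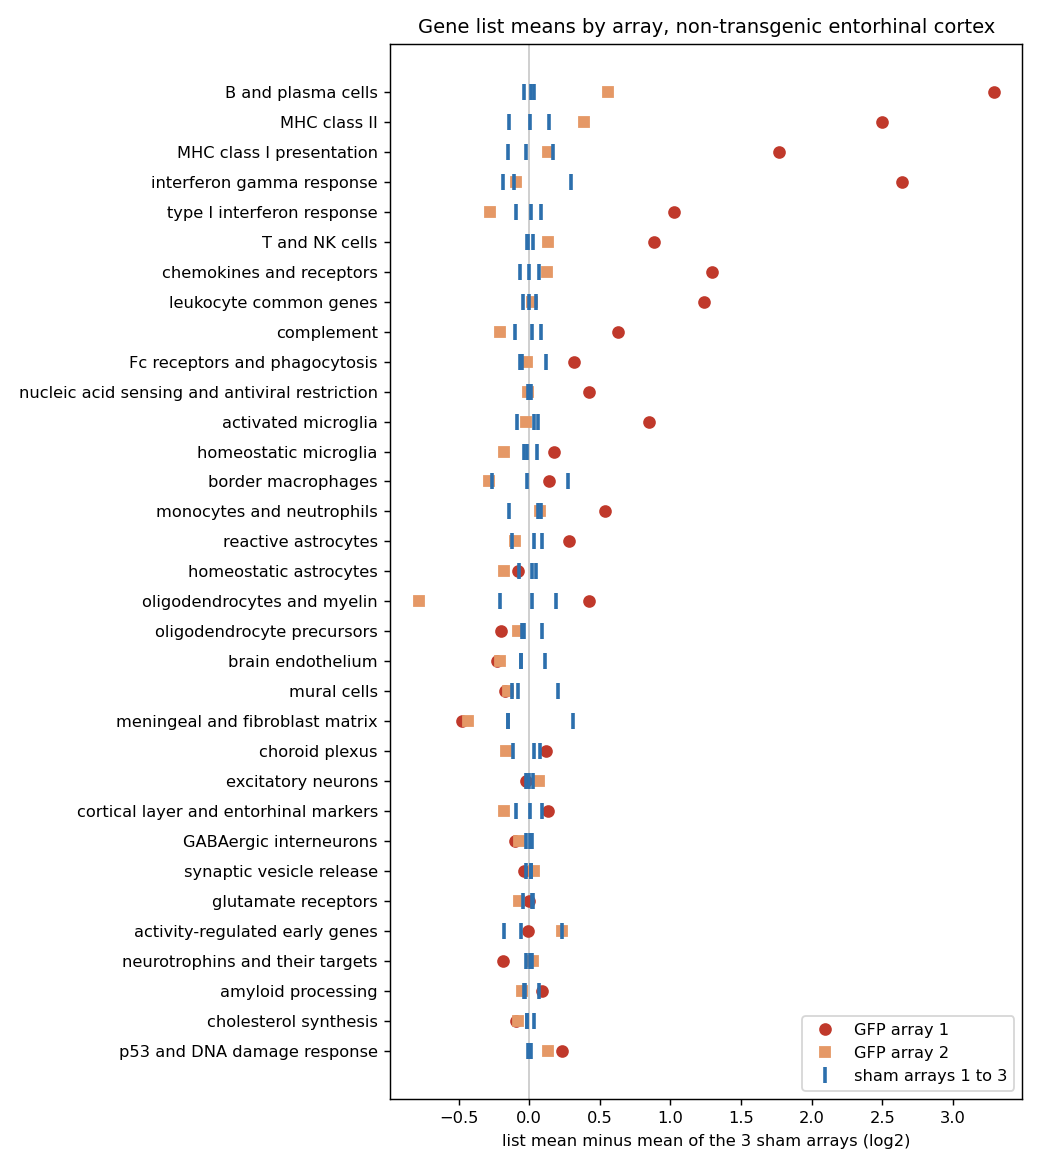
Mean log2 level of each gene list (rows) minus the mean of the 3 sham arrays: red circles are GFP array 1, orange squares GFP array 2 and blue ticks the sham arrays. The B and plasma cell list lay highest on GFP array 1 (8.46, with 5.73 on GFP array 2 and 5.13 to 5.20 in sham), neuronal lists lay near 0, and the myelin list parted the GFP arrays (8.37 and 7.17).

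Microglia, the resident macrophages of the brain, gave a mixed picture. Of 17 homeostatic genes, 12 were higher (median 0.05, and -0.05 without GFP array 1), and the list held Fcrls, which was lower in both GFP arrays. P2ry12, the ADP receptor of resting microglia, chosen after its values were seen, was at 9.20 and 9.28 in GFP cortex, against 9.34, 9.43 and 9.38 in sham cortex. Itgam, the complement receptor CD11b, was at 6.12 and 5.53 in GFP cortex, against 5.16, 5.15 and 5.45 in sham cortex. Of 20 activated microglia genes, 13 were higher (median 0.16). GFP array 2 was below every sham array for 9 of them all, where 26.4% of all genes were. The median was -0.07 without GFP array 1 and 0.48 without GFP array 2, so its sign rests on GFP array 1. Cybb, the NADPH oxidase subunit, was at 7.79 and 5.01 in GFP cortex, against 4.14, 4.72 and 4.61 in sham cortex. Ccl6 was at 6.80 and 6.76 in GFP cortex, against 6.03, 5.96 and 6.41 in sham cortex, high on both arrays, and Gpnmb was at 5.29 and 5.27 in GFP cortex, against 5.57, 5.82 and 5.68 in sham cortex, low on both.

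Aif1, which encodes the microglial protein Iba1, was at 8.42 and 6.97 in GFP cortex, against 7.07, 7.06 and 6.94 in sham cortex (0.67 ± 0.39, adjusted p = 1). Fcgr1, the high-affinity IgG receptor, was at 7.33 and 6.64 in GFP cortex, against 5.96, 6.16 and 6.19 in sham cortex. Macrophages of the brain's borders did not share the sign: 7 of 10 of their genes were lower (median -0.13), with -0.02 without sham array 2 and 0.02 without GFP array 2. Cbr2 was at 4.51 and 4.48 in GFP cortex, against 4.74, 5.52 and 5.10 in sham cortex, and F13a1, a clotting factor subunit of these cells, was at 6.40 and 6.26 in GFP cortex, against 6.47 to 7.30 in sham cortex. Clec10a went the other way, at 6.24 and 5.07 in GFP cortex, against 4.53, 5.02 and 5.01 in sham cortex. Both GFP arrays lay above sham for 1 of the 10 genes and below it for 2, where 9.39% and 9.79% of all genes did. Of 7 monocyte and neutrophil genes, 5 were higher (median 0.20), with medians of 0.10 and 0.18 without GFP arrays 1 and 2. Of 13 complement genes, 9 were higher (median 0.17), but GFP array 2 was below every sham array for 7 of the 13. Over all genes 26.4% were so. The complement median was -0.15 without GFP array 1 and 0.78 without GFP array 2. None of the members of these lists passed.

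The 2 astrocyte gene lists had small median differences from sham. Gfap, the filament of reactive astrocytes, was at 9.62 and 8.99 in GFP cortex, against 9.07, 9.24 and 9.21 in sham cortex (0.13 ± 0.32, adjusted p = 1), and 12 of 20 reactive genes were higher (median 0.09). GFP array 2 lay below every sham array for 11 of the 20, where 26.4% of all genes did. The median was -0.18 without GFP array 1, 0.24 without GFP array 2 and -0.02 without sham array 1. Its sign therefore rests on single arrays. Serpina3n, a protease inhibitor of reactive astrocytes, was at 8.36 and 8.77 in GFP cortex, against 7.31, 6.57 and 8.53 in sham cortex, so the groups overlapped. All 17 homeostatic astrocyte genes were lower on average, by a median of -0.13, with 6 lower on both GFP arrays than on every sham array, as were 9.79% of all genes. GFP array 1 was below every sham array for 7 of the 17 and GFP array 2 for 15, where 30.3% and 26.4% of all genes were. Aqp4, the water channel of astrocyte end-feet, was at 11.05 and 11.09 in GFP cortex, against 11.17, 11.37 and 11.32 in sham cortex. Slc1a3, a glutamate transporter, was at 10.89 and 10.97 in GFP cortex, against 11.12, 11.17 and 11.04 in sham cortex. None passed.

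Vessel and meningeal genes lay lower on both GFP arrays alike. All 21 meningeal and fibroblast matrix genes were lower on average (median -0.44) and 9 did not overlap, where 9.79% of all genes lay below sham in this way. None passed. Mgp, an inhibitor of calcification made by fibroblasts and vessels, was at 8.44 and 8.58 in GFP cortex, against 9.72, 10.21 and 9.16 in sham cortex (-1.19 ± 0.46, adjusted p = 1). Slc22a6, an organic anion transporter of the meninges, was at 6.44 and 6.54 in GFP cortex, against 7.03, 7.40 and 7.21 in sham cortex. Slc47a1 was at 6.71 and 7.27 in GFP cortex, against 7.98, 8.37 and 7.52 in sham cortex. For these 3 genes the GFP arrays lay below every sham array. Aebp1, a collagen-binding protein, was at 6.18 and 6.46 in GFP cortex, against 6.57, 7.48 and 7.03 in sham cortex. The list's mean log2 level was 8.06 and 8.10 in GFP cortex, against 8.38, 8.84 and 8.38 in sham cortex, with sham array 2 the highest. In the transgenic animals it was 7.59 to 8.46 with GFP virus and 7.50 to 8.50 with BDNF virus. Both ranges reached above the sham arrays at 8.38. The median was -0.36 without GFP array 1, -0.43 without GFP array 2 and -0.26 without sham array 2.

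All 15 endothelial genes were lower on average (median -0.21), 8 of them without overlap where 9.79% of all genes were so, and none passed. Cldn5, the tight junction protein that seals brain capillaries, was at 8.93 and 8.92 in GFP cortex, against 9.33, 9.32 and 9.18 in sham cortex (-0.35 ± 0.08, adjusted p = 1). Itm2a was at 10.66 and 10.68 in GFP cortex, against 11.00, 11.39 and 11.05 in sham cortex. Slco1a4, an anion transporter of the blood-brain barrier, was at 9.42 and 9.43 in GFP cortex, against 9.57, 9.82 and 9.59 in sham cortex. The GFP arrays were nearly equal for all 3 genes and below every sham array. Tek, the angiopoietin receptor, was at 7.57 and 7.43 in GFP cortex, against 7.65, 7.84 and 7.80 in sham cortex. Kdr, the VEGF receptor, chosen after its values were seen, was at 6.88 and 6.84 in GFP cortex, against 7.09, 7.17 and 7.17 in sham cortex. The meningeal list was lower on the same arrays, and its part in the endothelial result was not tested. The endothelial list's mean in the transgenic animals given GFP virus was 7.81 to 7.86, and in those given BDNF virus it was 7.82 to 7.97, which reached the sham arrays at 7.95, 8.12 and 7.95. Mural cell genes were lower for 11 of 12 members (median -0.19, and -0.05 without sham array 2), with Rgs5, a pericyte gene, at 10.08 and 10.33 in GFP cortex, against 10.42, 10.69 and 10.39 in sham cortex.

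**Figure D4:**
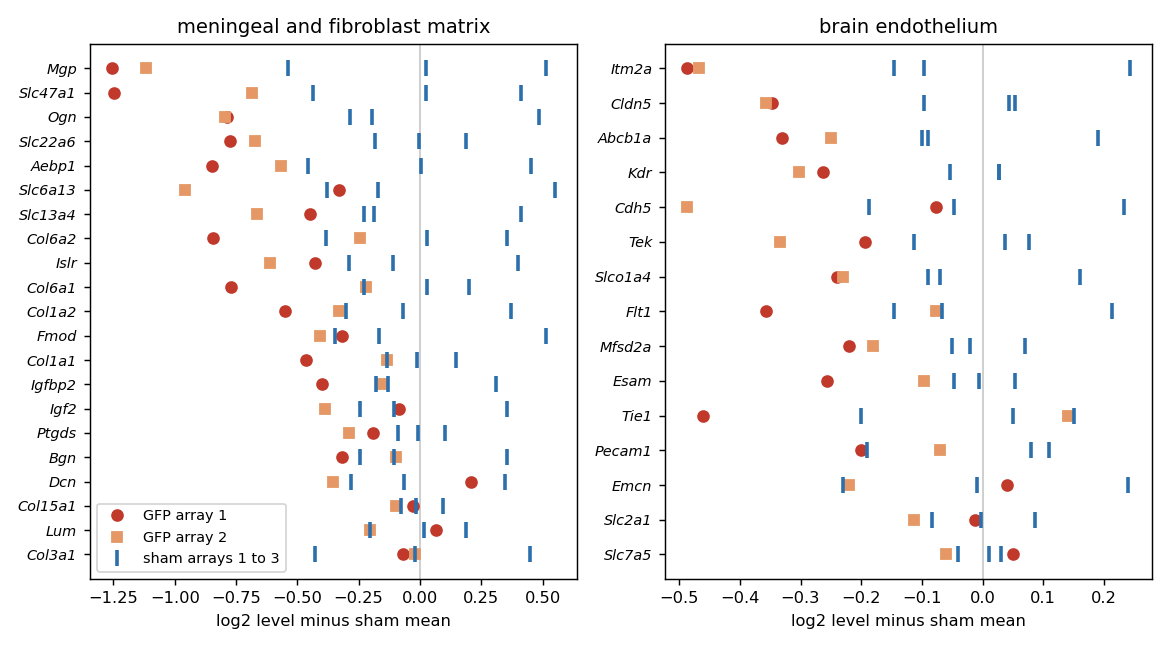
Log2 level minus the sham mean (x axis) for each meningeal and fibroblast matrix gene (left) and each endothelial gene (right), ordered by the GFP minus sham difference, with red circles and orange squares for GFP arrays 1 and 2 and blue ticks for the sham arrays. Cldn5 stood at 8.93 and 8.92 on the GFP arrays, below the lowest sham array at 9.18, while Col3a1 lay among the sham arrays on both.

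Myelin parted the GFP arrays in opposite directions. The list's mean log2 level was 8.37 and 7.17 in GFP cortex, against 7.97, 7.74 and 8.14 in sham cortex. GFP array 1 was above every sham array for 13 of 15 genes and GFP array 2 below every one for 15 of 15. Over all genes these shares were 28.9% and 26.4%. No member of the list kept the groups apart. Mbp, myelin basic protein, was at 12.54 and 11.32 in GFP cortex, against 12.21, 12.15 and 12.46 in sham cortex. Mobp, another myelin protein, chosen after its values were seen, was at 10.15 and 7.67 in GFP cortex, against 9.36, 8.99 and 9.37 in sham cortex. Ugt8a, the enzyme that makes galactosylceramide, was at 8.03 and 7.34 in GFP cortex, against 8.22, 7.92 and 8.46 in sham cortex, 1 of the 2 members not above sham on GFP array 1. The median difference was -0.20, with -0.69 without GFP array 1, 0.38 without GFP array 2, -0.31 without sham array 2 and -0.09 without sham array 3. With the myelin list's mean as a covariate, the 3 called genes passed at the same adjusted p of 0.0195. Of 12 oligodendrocyte precursor genes, 10 were lower (median -0.10, and -0.05 without sham array 2), with Gpr17, a receptor that holds back their maturation, at 8.03 and 8.43 in GFP cortex, against 8.64, 8.68 and 8.66 in sham cortex. Bmp4, a signal that slows the same step, differed by -0.56 ± 0.25. Neither gene overlapped between the groups and neither passed. Both GFP arrays lay below sham for 5 of the 12 genes, where 9.79% of all genes did.

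Neuronal gene lists had small median differences from sham. The medians were 0.03 for 14 excitatory neuron genes, -0.04 for 20 cortical layer and entorhinal markers, -0.06 for 17 interneuron genes, 0.00 for 16 vesicle release genes and -0.05 for 16 glutamate receptor genes, and with either GFP array left out they lay between -0.12 and 0.08. No member passed. Npy, a neuropeptide of interneurons, was at 9.63 and 10.05 in GFP cortex, against 10.30, 10.10 and 10.21 in sham cortex, and Grm3, a metabotropic glutamate receptor, was at 10.82 and 10.81 in GFP cortex, against 11.05, 11.07 and 11.19 in sham cortex. The activity-regulated genes had a median of 0.03 (0.27 without GFP array 1), with Npas4, a transcription factor induced by firing, at 5.77 and 6.11 in GFP cortex, against 4.63, 5.31 and 5.41 in sham cortex, above sham on both arrays. Btg2 was at 7.66 and 8.08 in GFP cortex, against 6.99, 7.56 and 7.52 in sham cortex. They were the 2 of 19 genes with both GFP arrays above sham, a share near the 9.39% of all genes. On average 10 of the 19 were higher and 9 lower. Klf4 was lower on average, at 7.04 and 6.75 in GFP cortex, against 6.91, 7.73 and 7.18 in sham cortex, with overlap.

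The genes that the study turns on did not pass in this control comparison. Bdnf, the neurotrophin delivered in the other arm, was at 7.42 and 8.21 in GFP cortex, against 7.83, 8.26 and 8.05 in sham cortex (-0.23 ± 0.27, adjusted p = 1). Ntrk2, its receptor TrkB, was at 11.23 and 11.21 in GFP cortex, against 11.11, 10.99 and 11.05 in sham cortex (0.17 ± 0.13). Over the other 7 probe sets of Ntrk2 the differences ran between -0.40 and 0.31. App was at 13.27 and 13.34 in GFP cortex, against 13.29, 13.26 and 13.33 in sham cortex (0.01 ± 0.07, adjusted p = 1). The medians were 0.01 for 15 amyloid processing genes, -0.03 for 20 cholesterol synthesis genes, 0.02 for 17 respiratory chain genes and -0.03 each for heat shock and unfolded protein response genes. Of 15 p53 and DNA damage genes, 13 were higher with a median of 0.07, Pmaip1 the farthest. Cyp51, an enzyme of cholesterol synthesis, was at 8.08 and 8.33 in GFP cortex, against 8.56, 8.67 and 8.44 in sham cortex.

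The hippocampus of non-transgenic animals, which receives input from the entorhinal cortex, was compared in the same way with 2 GFP and 3 sham arrays. There Cwc22 differed by 1.16 ± 0.10 (adjusted p = 5.45e-04), Galc by -0.93 ± 0.13 (adjusted p = 0.017) and Fgf1 by -0.87 ± 0.09 (adjusted p = 0.00238). Creg2 and Pmaip1 were also called in hippocampus, making 5 genes. The labels do not say which cortex and hippocampus came from the same animal, and animals shared between regions would make these 2 comparisons dependent. Differences in the 2 regions correlated across 14941 genes with r = 0.67 (Spearman 0.34), a description of genes that share arrays.

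The difference between regions was tested directly and no gene passed with limma (0%), with 373 at an unadjusted p of 0.05 (2.5%) and a smallest adjusted p of 1. Creg2, chosen after its values were seen, differed by 0.50 ± 0.15 in cortex and by 1.97 ± 0.27 in hippocampus. Cd74 differed by 2.79 in cortex and 4.75 in hippocampus, where both GFP arrays were high. The class II list's mean was 8.52 and 7.39 in GFP hippocampus, against 5.71, 5.72 and 5.81 in sham hippocampus. The meningeal list had a median of -0.17 in hippocampus, with 6 of 21 higher, against 0 of 21 in cortex, a difference that was not tested as a list.

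**Figure D5:**
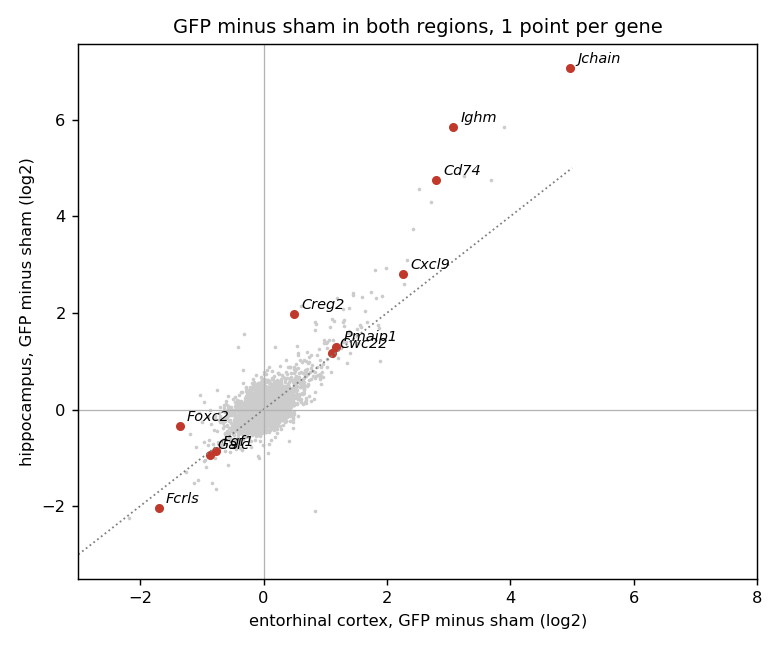
GFP minus sham log2 difference per gene in entorhinal cortex (x axis) and hippocampus (y axis), with named genes in red and the dotted line marking equal differences. Cwc22 (1.11 and 1.16), Galc (-0.87 and -0.93) and Fgf1 (-0.77 and -0.87) lie near the line, while Jchain (4.96 and 7.06) and Cd74 (2.79 and 4.75) lie above it.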

How the data were processed

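Mouse brain RNA was measured on Affymetrix arrays. The authors deposited a table of 45101 probe sets for 26 arrays, as log2 values made with RMA, per the submitters' processing notes, a method that normalizes all arrays to 1 distribution, and the sources used here name no version. The labels' protocols give only dissection and freezing. Groups came from the sample titles. GEO's platform annotation named 34958 probe sets with 1 gene symbol, 932 with several and 9211 with none. Where a gene had several probe sets, the brightest on average across the 26 arrays stood for it. Genes whose mean over the 26 arrays lay below the 30th percentile (4.33) were left out, which left 14941. A gene low in sham cortex could therefore pass through arrays where it was higher. The 13 entorhinal arrays were fitted in 4 groups with limma 3.58.1 in R 4.3.3 (lmFit, eBayes), with Benjamini-Hochberg adjustment over all genes, and the 26 arrays in 8 groups for the region difference. The fit was tested on simulated data. A permutation of 2 against 3 arrays cannot reach 0.05, so limma's fit was used.

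The 45 lists held 733 distinct genes, of which 659 had a probe set and 620 were tested. Members and lists were chosen with earlier results of these data known. Genes were named by a rule: called genes, the 10 per direction with the smallest p and no overlap between groups, the 8 per direction with the largest difference below an unadjusted p of 0.01 and no overlap, up to 4 members per list with the smallest p, and Bdnf, App, Ntrk2, Gfap and Aif1. Others are marked as chosen after their values were seen. Same-numbered arrays deviated together with correlations of -0.026 and 0.153, so the numbers were not taken to pair the samples. Alternatives were the filter, the probe set rule, normalization, eBayes options, array weights, the arrays fitted, the replicate block, the myelin covariate and leaving out each array. Promoter sequences came from RefSeq (GRCm38.p6). Scan dates were not analysed here.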

Additional observations from a re-analysis of the deposited data

Results flagged for a closer look

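A probe set with no gene name in the annotation, 1458585_at, differed more than the named genes that passed. It was at 6.65 and 6.76 in GFP cortex, against 4.74, 4.25 and 3.95 in sham cortex, and at 6.31 to 6.87 in the 8 transgenic entorhinal arrays. Its log2 difference was 2.39 ± 0.19 (SE), with a limma adjusted p of 7.19e-04 over all probe sets.

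List means were also examined for an array far from the other 3 of its group (Dixon's test at 95%), possible in the transgenic groups of 4. Over 45 lists and the 3 called genes, in 96 sets of 4 arrays, 6 stood apart, where chance alone flags about 1 in 20. In the transgenic GFP group, array 4 was highest for T and natural killer cell genes (6.22), homeostatic microglia (8.03), cytokines (6.89) and cell cycle genes (6.47), and array 2 was lowest for vesicle release genes (11.56). In the transgenic BDNF group, array 4 was highest for mural cell genes (7.17).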

How the results depend on the processing

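The count of 3 genes called kept within 1.5 times without a filter, with a stricter one (50th percentile), both other normalizations, eBayes with trend and robust, array weights, all 26 arrays and the myelin covariate. It was 1 with probe sets averaged and 0 with only the 5 arrays compared (limma, smallest adjusted p = 0.554, 704 genes at an unadjusted p of 0.05). Leaving out each array gave 0 to 1. With the replicate block 2 genes were called, Cwc22 (1.16, adjusted p = 0.00576) and Foxc2, which the fit without the block does not call (adjusted p = 1 there), while Galc had an adjusted p of 0.0725 and Fgf1 of 0.15. Over all probe sets 2 were called, that of Cwc22 and 1 with no gene name. The region difference called 0 genes under each alternative run with limma. Leave-one-out fits turned the sign of some differences that had not passed, and over these fits Bdnf ran from -0.62 to 0.17, Gfap from -0.19 to 0.45, Aif1 from -0.05 to 1.40, Irgm1 from -0.01 to 2.61, Mbp from -0.95 to 0.27, Mobp from -1.57 to 0.91, App from -0.03 to 0.05 and Cd79a from -0.10 to 0.15, with App at -0.00 without sham array 2 and Cd79a at -0.05 without sham array 3. Cd79a was -0.09 with the block and Mobp 0.01 with the myelin covariate. Of the other list medians under an alternative, 666 moved by less than the pooled SD within the 2 groups and 53 by more. The 5 arrays limit what can be called.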

Other observations

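Some of the farthest single-array values belonged to genes not described above, all but Ptgs2 chosen after their values were seen. Pttg1, which encodes securin, was at 10.79 and 7.60 in GFP cortex, against 11.31, 11.39 and 11.41 in sham cortex. Rbm45, an RNA-binding protein gene, was at 6.23 and 9.35 in GFP cortex, against 7.57, 7.14 and 6.82 in sham cortex. Slc7a11, the cystine transporter, was at 7.56 and 5.80 in GFP cortex, against 7.03, 8.14 and 7.86 in sham cortex. On GFP array 1, Gbp8 stood at 9.21, with 4.20 on GFP array 2 and 3.38, 3.32 and 3.69 in sham cortex. Igkv8-30, an antibody light chain gene, was at 12.50 and 6.79 in GFP cortex, against 5.71, 5.99 and 5.53 in sham cortex. Ptgs2, the activity-induced enzyme COX-2, was at 5.62 and 7.09 in GFP cortex, against 7.48, 7.59 and 6.25 in sham cortex.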
